A study of Mus musculus with 8 samples.

Results

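The beta crystallins are the 6 genes Cryba1, Cryba2, Cryba4, Crybb1, Crybb2 and Crybb3, and each was taken by its gene symbol from the 35275 genes listed for lens fiber cells (FC). All 6 were found once. Levels are in FPKM, fragments per kilobase of gene, scaled to the fragment total of the library. All 6 passed the filter on low values, 1 FPKM as the mean of at least 1 of the groups, as did 9794 genes in all. RNA was sequenced from 8 libraries of C57BL/6 mice (substrain C57BL/6J), for which the labels name no engineered allele, 4 of animals raised in cigarette smoke (CS) and 4 of controls of the same age that met no smoke (untreated Ct). The CS-exposed mice were born in a whole-body smoke chamber and spent 5 hours/day and 5 days/week in smoke for 3.5 months, so that mice of both groups were about that age. Each library was a pool of lens FC from the right eyes of 4 mice, parted from the epithelium by hand with forceps, so that differences between single mice cannot be seen. Male and female pools were both used, and the labels do not say which pool is which. The comparison asks whether smoke changed the RNA of lens FC.

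Crystallins are the bulk proteins of the lens, and their dense, ordered packing in elongated, organelle-free fiber cells gives the lens its refractive power. Beta crystallins are built from Greek key folds like the gamma crystallins, but join into dimers and larger oligomers. They fall into acidic members, encoded by Cryba genes, and basic members, encoded by Crybb genes, and mutations in several of them cause inherited cataract. The proteins are hardly replaced after the fiber cell has lost its nucleus. Fiber cell RNA is thought to come mainly from the younger, outer fibers, which was not examined here.

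The genes lie at 3 places of the mouse genome (GRCm38). Cryba1 is on chromosome 11 from 77718615 to 77725283 on the minus strand, inside the span of Nufip2 on the other strand but with 0 exonic bases shared. Cryba2 is on chromosome 1 from 74889934 to 74893143, minus strand. The other 4 are on chromosome 5. Cryba4 (112246493 to 112252518, minus strand) and Crybb1 (112255815 to 112269585, plus strand) point away from each other with 3296 bases between their 5′ ends, and Crybb2 (113058258 to 113070117) and Crybb3 (113075839 to 113081584) follow each other on the minus strand with 5721 bases between them.

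The 150 bases before the RefSeq start of each gene are shown because several members varied together across libraries, and these windows show which short motifs the promoters share. They are on GRCm38.p6, written 5′ to 3′ on the strand of the gene, and all 6 genes had an entry. Capitals mark matches, on either strand, to TATAAA (the TATA box), TGCTGA (the core bound by Maf proteins), ACAAT (the core bound by Sox proteins) and GAANNTTC (paired units of the heat shock element).
Cryba1, chr11:77725294-77725443, minus strand: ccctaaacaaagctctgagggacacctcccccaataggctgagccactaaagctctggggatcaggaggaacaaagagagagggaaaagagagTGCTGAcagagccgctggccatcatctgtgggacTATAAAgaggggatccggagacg
Cryba2, chr1:74893144-74893293, minus strand: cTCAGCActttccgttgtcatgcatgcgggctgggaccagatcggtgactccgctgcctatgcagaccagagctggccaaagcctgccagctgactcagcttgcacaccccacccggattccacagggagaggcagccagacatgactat
Cryba4, chr5:112252519-112252668, minus strand: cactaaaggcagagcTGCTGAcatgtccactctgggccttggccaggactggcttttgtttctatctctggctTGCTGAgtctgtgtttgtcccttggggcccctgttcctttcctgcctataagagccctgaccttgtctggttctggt
Crybb1, chr5:112255670-112255819, plus strand: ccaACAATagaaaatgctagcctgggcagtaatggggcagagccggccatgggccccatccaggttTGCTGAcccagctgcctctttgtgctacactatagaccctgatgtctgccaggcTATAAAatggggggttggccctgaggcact
Crybb2, chr5:113070118-113070267, minus strand: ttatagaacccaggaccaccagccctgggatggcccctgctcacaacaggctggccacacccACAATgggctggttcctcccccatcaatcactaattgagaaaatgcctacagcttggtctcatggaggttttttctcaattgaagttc
Crybb3, chr5:113081585-113081734, minus strand: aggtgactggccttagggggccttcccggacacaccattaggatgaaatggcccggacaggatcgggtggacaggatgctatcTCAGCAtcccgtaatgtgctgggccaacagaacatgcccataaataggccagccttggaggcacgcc

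TGCTGA was present in the windows of 5 of the 6 genes, all but Crybb2, and in 10.1% of the 32851 promoter windows of the same length. Cryba4 held it at 2 places. TATAAA was found in Cryba1, from 23 to 18 bases before the start, and in Crybb1, from 30 to 25 bases before it, against 7.57% of all windows. ACAAT was found in Crybb1 and Crybb2, against 17.4% of all windows, and GAANNTTC in 0 of the 6, against 3.95%. The window of Crybb2, the most abundant of the 6, thus held neither TATAAA nor TGCTGA. These are matches of letters in a window and not binding sites.

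Beta crystallin RNA was a large part of the library. By whole reads recovered from the FPKM, the 6 genes together took 24.3% to 25.0% of fragments counted on genes in untreated Ct libraries. In CS-exposed libraries they took 23.9% to 25.0%. As a share of summed FPKM they made up 32.7 ± 0.442% in untreated Ct mice and 32.2 ± 0.701% in CS-exposed mice (SD, n = 4 each). Among the 16 crystallin genes they made up 50.1 ± 0.746% and 49.6 ± 0.877% of the FPKM, beside 22.4% and 21.6% for the alpha crystallins and 27.5% and 28.8% for the gamma crystallins. The shares of the beta crystallins overlapped between groups on each of these scales.

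The fragment total behind the FPKM was between 18093762 and 23251413 per library. It was read from the steps in which low FPKM values rise. At these totals the FPKM of all 9794 genes corresponded to whole reads within 0.02 of a read. These genes took 99.3% to 99.4% of the totals, which are therefore taken as fragments counted on genes and not as all that were sequenced or mapped. Each beta crystallin value rested on at least 232796 reads, so that counting error is at most 0.207% of a value, and the spread between libraries is far larger than it. Lens fiber markers (Bfsp1, Bfsp2, Mip and 7 others) summed to 21500 to 24012 FPKM in untreated Ct libraries and 23633 to 24389 FPKM in CS-exposed libraries, and all 10 were expressed. The 9 markers of the lens epithelium summed to 261 to 390 FPKM and 245 to 313 FPKM. Markers of rod photoreceptors were higher in CS-exposed libraries (38.0 to 112 FPKM summed over 12 genes, against 13.0 to 33.7), and 11 of the 12 had an unadjusted limma p value under 0.05, beside 4.83% of all genes tested. Of the 12, 6 passed the filter only through their CS-exposed mean, which favours such a count. An unadjusted p value under 0.05 was also found for 1 of the 10 fiber markers and 1 of the 9 epithelial markers. The 8 pigment epithelium markers summed to 3.05 to 26.0 FPKM against 1.53 to 2.12, and 1 of the 8 was listed at 0 throughout. Only 4 of them passed the filter, again through their CS-exposed mean alone, and all 4 had such a p value. The red blood cell markers that passed the filter, 2 of 5, also did so only through that mean, and 1 of them had such a p value. Their list reached 22.8 FPKM in a CS-exposed library and white blood cell markers at most 1.02 FPKM in any library. The sums of all lists but the fiber markers were far below the lowest beta crystallin value, 9258 FPKM. In bulk tissue, fewer cells of a type and less RNA per cell cannot be told apart.

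Xist, the RNA of the inactive X chromosome, was at most 0.0113 FPKM in replicates 1 and 2 of both groups and between 41.1 and 49.0 FPKM in replicates 3 and 4. Genes of the Y chromosome mirrored this, with an exception. Eif2s3y was at 9.35 to 11.3 FPKM in the low-Xist libraries and at most 0.125 FPKM in 3 of the high-Xist libraries, but at 3.59 FPKM in untreated Ct replicate 3. That library thus held both high Xist and Y-linked RNA, and it also had the highest level of the epithelial factor Foxe3 (64.0 FPKM, against 17.5 to 34.8 in the others). Values are therefore described by Xist level and not by sex, and results are also given without this library where it turned them.

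Crybb2, which encodes the major basic beta crystallin, had the highest deposited FPKM of all genes listed. It was at 152073, 145583, 146568 and 149736 FPKM in the untreated Ct libraries and at 150372, 149149, 142442 and 139808 FPKM in the CS-exposed libraries. CS-exposed replicates 3 and 4 were below every untreated Ct library, while replicates 1 and 2 lay within the untreated Ct range. The mean went from 148490 ± 2974 FPKM in untreated Ct to 145443 ± 5125 FPKM in CS-exposed libraries (± SD, 4 of each), and the log2 fold change was -0.030 with a standard error of 0.030 (limma adjusted p = 0.976).

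Crybb1 encodes a basic member with long terminal extensions. Its values were 15036, 14576, 14599 and 14587 FPKM in untreated Ct mice and 15208, 14803, 14154 and 14093 FPKM in CS-exposed mice. The same CS-exposed replicates 3 and 4 were the lowest, and CS-exposed replicate 1 was the highest of all 8. Means were 14700 ± 225 FPKM and 14565 ± 536 FPKM (± SD), with a log2 fold change of -0.014 and a standard error of 0.031 (limma adjusted p = 0.989).

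Crybb3, the third basic member, was the lowest of the 6 by deposited FPKM, though not by reads or with principal coding lengths, and varied most. It was at 10553, 10072, 9258 and 9828 FPKM in untreated Ct mice and at 10594, 10397, 9637 and 9488 FPKM in CS-exposed mice. The groups overlapped almost wholly, and the lowest value was that of untreated Ct replicate 3. With means of 9928 ± 538 FPKM and 10029 ± 548 FPKM (± SD), its log2 fold change was 0.015 with a standard error of 0.047 (limma adjusted p = 0.991), and without untreated Ct replicate 3 it was -0.018.

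Cryba1 encodes an acidic member made in a longer and a shorter form from a single messenger. Its values were 29198, 28647, 30700 and 30008 FPKM in untreated Ct mice and 29584, 29690, 28465 and 29089 FPKM in CS-exposed mice. Untreated Ct replicates 3 and 4 were the highest, and 1 CS-exposed library was below the untreated Ct range. Means were 29638 ± 902 FPKM and 29207 ± 559 FPKM (± SD), with a log2 fold change of -0.021 and a standard error of 0.029 (limma adjusted p = 0.985).

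Cryba4, an acidic member which forms dimers with the protein of its genomic neighbour Crybb1, showed the same order of libraries at the top. It was at 25344, 25116, 27447 and 26942 FPKM in untreated Ct mice and at 25891, 25750, 25377 and 26283 FPKM in CS-exposed mice. All 4 CS-exposed values lay inside the untreated Ct range. From means of 26212 ± 1157 FPKM and 25825 ± 375 FPKM (± SD), the log2 fold change was -0.021 with a standard error of 0.033 (limma adjusted p = 0.985), and without untreated Ct replicate 3 it was 0.0019.

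Cryba2, the remaining acidic member, was at 25087, 25846, 26097 and 26386 FPKM in untreated Ct mice and at 25401, 24784, 25782 and 26843 FPKM in CS-exposed mice. The CS-exposed libraries held both the lowest and the highest value. Its means were 25854 ± 557 FPKM and 25702 ± 864 FPKM (± SD), and its log2 fold change was -0.0089 with a standard error of 0.031 (limma adjusted p = 0.992).

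No beta crystallin gene passed the test between CS-exposed and untreated Ct mice. In the limma fit of all 9794 genes, 1 gene (0.0102%) had an adjusted p value under 0.05 and 473 genes (4.83%) an unadjusted one, and 0 of the 6 beta crystallins were among either. The unadjusted p values of the 6 genes were between 0.332 and 0.777, and two-sided exact permutation tests of each gene's FPKM gave p values from 0.371 to 0.771, where the smallest that 4 against 4 libraries allow is 0.0286. Nor were the groups without overlap for any of the 6, as they were for 3.08% of all genes tested.

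The width of the intervals depended on how the spread was estimated. In the fit with a trend of spread on level, the 95% interval of the difference, CS-exposed against untreated Ct, ran from -6.44% to 2.48% for Crybb2, from -5.70% to 3.03% for Cryba1, from -6.23% to 3.65% for Cryba4 and from -5.12% to 4.11% for Cryba2. For Crybb1 it ran from -5.50% to 3.80% and for Crybb3, the most variable, from -5.87% to 8.41%. Standard errors of the 6 log2 fold changes, 0.029 to 0.047 in this fit, were 0.060 to 0.073 with eBayes without a trend and 0.069 to 0.15 with no filter on low values, so that intervals were then wider, and 0.021 to 0.036 with limma-voom on recovered reads. The 6 genes had a median log2 fold change of -0.017 and a median absolute one of 0.018, beside 0.0043 and 0.084 over all genes tested. The other 53 genes expressed at 1000 FPKM or more had a median absolute log2 fold change of 0.038. The SD of log2 values within groups had a median of 0.041 for the 6 genes, of 0.051 for the other 53 and of 0.17 for all genes tested.

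**Figure D1:**
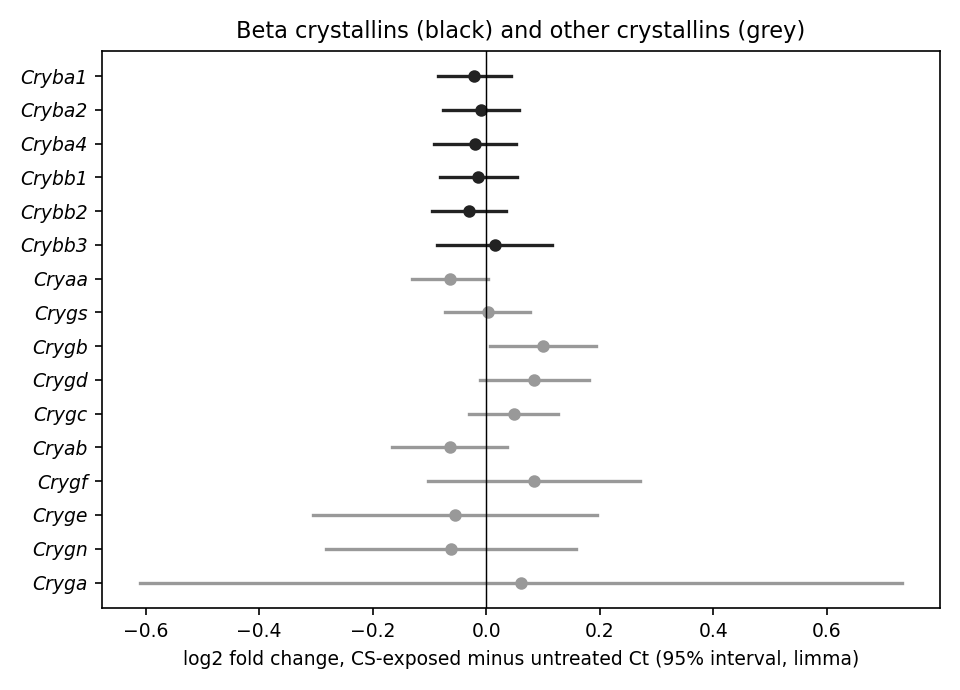
Log2 fold change, CS-exposed minus untreated Ct (x axis), for the 6 beta crystallins (black) and the 10 other crystallins (grey), with 95% intervals from limma over 4 libraries of each group. All 6 beta crystallin intervals include 0 and the points lie between -0.030 and 0.015, while the interval of Crygb, at 0.10, lies above 0 before adjustment.

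By the deposited FPKM the order of levels was Crybb2, Cryba1, Cryba4, Cryba2, Crybb1 and Crybb3. Crybb2 was 4.77 to 5.21 times as high as Cryba1 within a library, and Cryba1 was 1.13 times as high as Cryba4 by the means, each in 8 of 8 libraries and with no overlap of their ranges. Cryba4 and Cryba2 did not differ beyond their spread, since their means over the 8 libraries were 26019 and 25778 FPKM and Cryba4 was higher in 5 of 8. Cryba2 was 1.76 times as high as Crybb1 and Crybb1 1.47 times as high as Crybb3, again in 8 of 8 libraries.

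This order depends on the gene length behind the FPKM. The lengths that gave whole reads were 1377 bases for Cryba1, 923 for Cryba2, 808 for Cryba4, 882 for Crybb1, 906 for Crybb2 and 1419 for Crybb3. Each equals the longest transcript of the gene in the GENCODE M21 annotation. For Cryba1 and Crybb3 that transcript is a retained intron, and for Cryba2 one marked for nonsense-mediated decay, whereas the longest coding transcripts marked as principal have 778, 892 and 720 bases. With the principal coding lengths, Cryba1 rose from 29423 to 52076 FPKM, Cryba2 from 25778 to 33046 FPKM and Crybb3 from 9978 to 15874 FPKM, as means of the 8 libraries, and the other 3 genes kept their length. Crybb2 was then 2.82 times as high as Cryba1, Cryba2 was 1.27 times as high as Cryba4 in 8 of 8 libraries, and Crybb3 was 1.08 times as high as Crybb1, also in 8 of 8 libraries though with overlapping ranges. With the shortest principal transcript of each gene the order was the same, with Crybb2 at 183911 FPKM and Crybb3 at 18904 FPKM. A change of length is shared by all libraries and leaves the comparison of groups as it was.

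**Figure D2:**
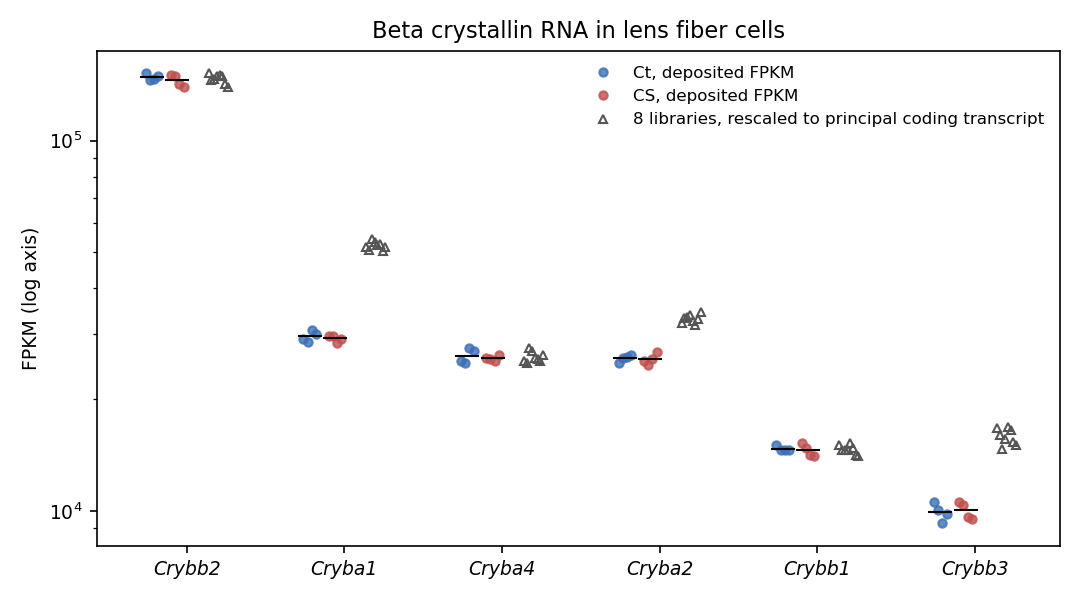
FPKM of each beta crystallin (log axis) in the 4 untreated Ct libraries (blue) and the 4 CS-exposed libraries (red) as deposited, with bars at the group means, and in all 8 libraries after rescaling to the longest principal coding transcript (open triangles). Rescaling lifts Cryba1, Cryba2 and Crybb3 and sets Crybb3 above Crybb1 and Cryba2 above Cryba4.

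The 6 genes share little sequence at the level of single bases. The longest run of bases shared by the principal transcripts of any 2 members was 20 bases. Over whole transcripts, pairs of basic members were identical at 57.2% to 59.7% of aligned nucleotide positions, pairs of acidic members at 51.1% to 58.8%, and acidic with basic members at 45.5% to 50.5%.

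Across the 8 libraries the basic members varied together. Pearson r of the log2 values was 0.91 between Crybb1 and Crybb2, 0.80 between Crybb1 and Crybb3 and 0.71 between Crybb2 and Crybb3, and 0.93, 0.84 and 0.82 for deviations from the group means. Among acidic members, Cryba1 and Cryba4 had an r of 0.86, Cryba4 and Cryba2 of 0.52, and Cryba1 and Cryba2 of 0.047. The head-to-head neighbours Cryba4 and Crybb1 had an r of -0.12. Cryba2 went against the basic members, with r of -0.70, -0.66 and -0.78 to Crybb1, Crybb2 and Crybb3. By their means, the basic members were also higher in low-Xist than in high-Xist libraries (ratios 1.03 to 1.09). The acidic members were lower there (0.962 to 0.990). Deviations from the group means keep this difference, and r within Xist levels was not computed. The r values are descriptions over 8 points. Values of a library also share its total, of which Crybb2 alone was 17.8% to 19.6% of the summed FPKM. When each library was instead scaled to its genes that are not crystallins, the basic members had r of 0.96, 0.78 and 0.72 and Cryba1 and Cryba4 of 0.93, but Cryba2 had r of only -0.096 and -0.059 to Crybb1 and Crybb2, and -0.58 to Crybb3. On that scale Cryba1 was as close to Crybb1 (0.70) and Crybb2 (0.73) as Crybb2 was to Crybb3, but its r to Crybb3 was 0.15, and that of Cryba4 to Crybb3 was -0.19. The r of Cryba4 and Crybb1 turned to 0.41 and that of Cryba1 and Cryba2 became 0.49. Scaled values of a library share a divisor, its total without crystallins, which can by itself raise r between members.

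**Figure D3:**
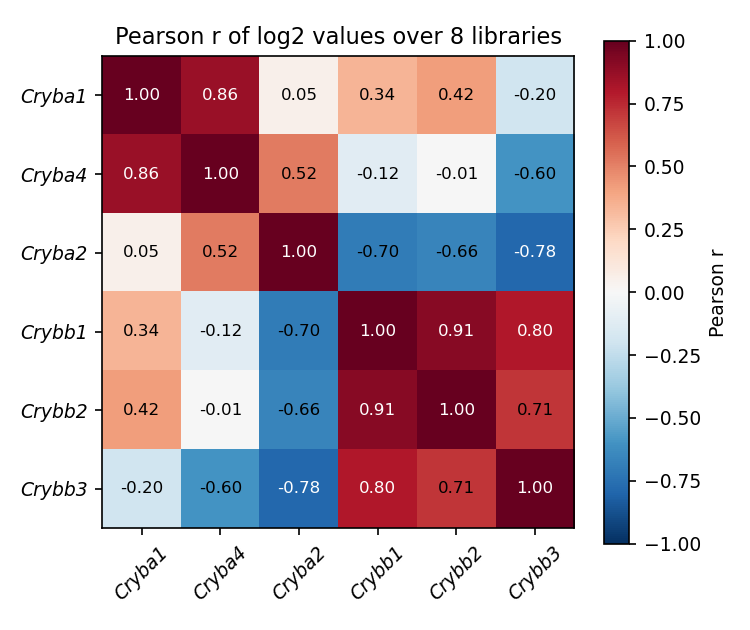
Pearson r of log2(FPKM + 0.1) between each pair of beta crystallins over the 8 libraries, from -1 (blue) to 1 (red). The basic members form a block with r from 0.71 to 0.91, Cryba1 and Cryba4 are paired at 0.86, and Cryba2 is negative to all 3 basic members. These r include the difference between low-Xist and high-Xist libraries.

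The ratio of summed basic to summed acidic FPKM was 2.12 ± 0.0876 in untreated Ct mice and 2.11 ± 0.0898 in CS-exposed mice (SD, n = 4 each), with ranges of 2.02 to 2.23 and 1.99 to 2.18. Crybb2 was 58.3 ± 0.639% of the FPKM of the 6 genes in untreated Ct mice and 58.0 ± 0.765% in CS-exposed mice. Both the ratio and this share are on the deposited FPKM. With principal coding lengths Cryba1, Cryba2 and Crybb3 rise and Crybb2 does not, so that both would be lower. The ranges of the acidic to basic balance overlapped between the groups.

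Values of Crybb3 fell apart by the Xist level of the library, a split made after seeing the data and not tested. In the 4 libraries with low Xist it was at 10072 to 10594 FPKM, and in the 4 with high Xist at 9258 to 9828 FPKM, a ratio of the means of 1.09 with no overlap. Of all genes tested, 3.26% did not overlap between these libraries, where chance gives 2.86% for 4 against 4. The other 5 genes did overlap, with ratios of 1.04 for Crybb1 and 1.03 for Crybb2 and of 0.962 to 0.990 for the acidic members. With Xist level as a term in the fit, the standard error of the Crybb3 difference by smoke was 0.029 in place of 0.047 on the log2 scale, and its log2 fold change was again 0.015 (limma adjusted p = 0.987). Xist level goes with the replicate numbers 1 and 2 against 3 and 4, so that sex and anything else shared by these libraries cannot be told apart.

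Within Xist levels the groups differed in both directions for Cryba1 and Cryba4. In low-Xist libraries both CS-exposed values of Cryba1 (29584 and 29690 FPKM) were above both untreated Ct values (29198 and 28647 FPKM), and in high-Xist libraries both (28465 and 29089 FPKM) were below (30700 and 30008 FPKM). The log2 ratio of the means was 0.035 in low-Xist and -0.077 in high-Xist libraries. For Cryba4 these ratios were 0.033 and -0.074, again with no overlap at either level, a pattern that 6.03% of all genes tested had in either order. The difference between the levels was -0.11 for Cryba1 (standard error 0.045, limma unadjusted p = 0.0328, adjusted p = 0.878) and -0.11 for Cryba4 (standard error 0.046, unadjusted p = 0.0422, adjusted p = 0.887), where 5.57% of all genes had an unadjusted p value under 0.05 and 0 an adjusted one. Without untreated Ct replicate 3 a single untreated Ct library was left at high Xist, which is then assumed to vary like the others, and the unadjusted limma p values were 0.0543 and 0.0673. For Crybb2 the ratios were 0.0090 and -0.070, for Crybb1 0.019 and -0.047, for Crybb3 0.025 and 0.0029 and for Cryba2 -0.021 and 0.0039, and their difference had unadjusted limma p values of 0.115 to 0.709. Without that library the difference was -0.095 for Crybb2 (unadjusted p = 0.0611), close to -0.096 for Cryba1, and -0.065 for Crybb3 in place of -0.022.

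**Figure D4:**
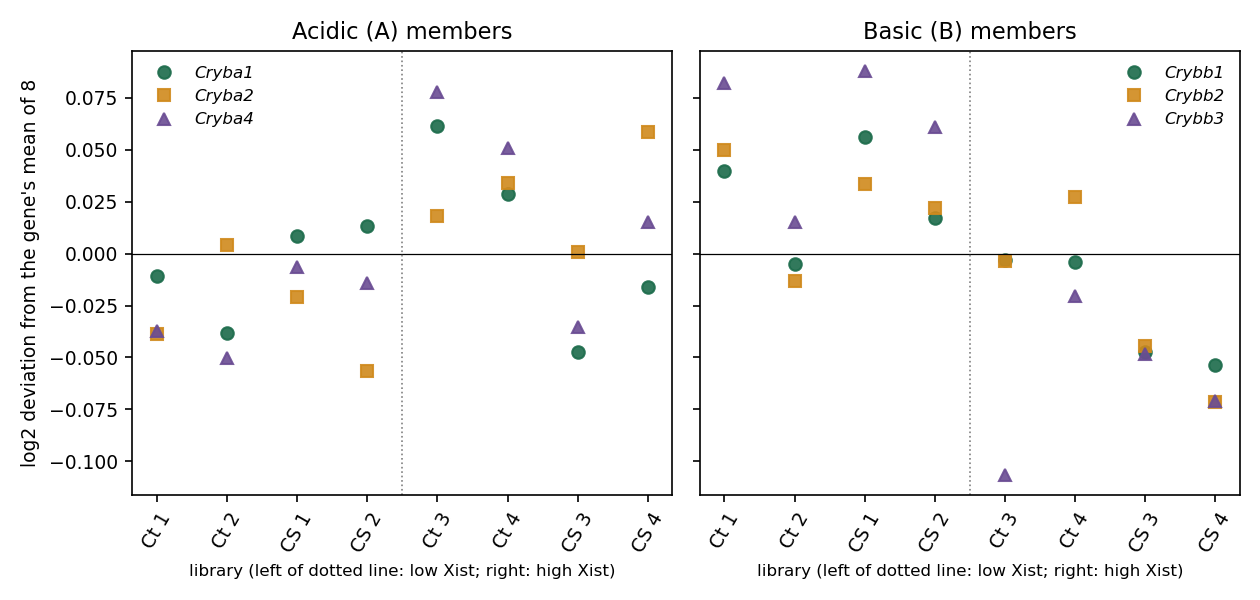
Deviation of each gene's log2 value from its mean over the 8 libraries (y axis), for acidic members (left) and basic members (right), with low-Xist libraries left of the dotted line and high-Xist libraries right of it. Crybb3 is above its mean in all 4 low-Xist libraries and below it in the other 4, and CS-exposed replicates 3 and 4 are below the mean for all 3 basic members.

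The 5 genes whose log2 values were most like the mean of the 6 beta crystallins over the 8 libraries, of 2741 genes expressed at 10 FPKM or more, were Fgfr1op2 (Pearson r = 0.94), Sfr1 (0.88), Sucla2 (0.86), Ube2n (0.85) and Sugp1 (0.83). These are the highest of many values over few points. They stood at 11.9 to 19.2 FPKM, far below the beta crystallins. Among the other crystallins with such a mean, r to the beta crystallin mean ran from -0.25 for Crygs to 0.71 for Cryge, and was 0.31 for Cryaa.

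The other 10 crystallin genes were all tested. Of these 1 had an unadjusted p value under 0.05, beside 4.83% of all genes tested. This was Crygb, a fiber cell gamma crystallin, at 37377 ± 2087 FPKM in untreated Ct and 40041 ± 1706 FPKM in CS-exposed mice (log2 fold change 0.10, limma unadjusted p = 0.0385, adjusted p = 0.956). Their median log2 fold change was 0.026, and the lowest was that of the alpha crystallin chaperone Cryab with -0.064. Of the relatives with beta-gamma crystallin domains and the crystallins of other animal groups, 4 were tested and 0 had an unadjusted p value under 0.05, from Crybg3 with a log2 fold change of -0.23 to Cryz with 0.23.

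Among 23 tested regulators of crystallin genes and their RNA, 3 had an unadjusted p value under 0.05 in the limma fit, beside 4.83% of all genes tested, and 0 an adjusted one. All 3 were higher in CS-exposed mice. The study that reported these libraries names Caprin2 and Rarb as differentially expressed in them. As the list was chosen with earlier results of these data known, the choice can favour this count. Hsf4, a heat shock factor of fiber cells, had a log2 fold change of 0.090 (unadjusted p = 0.0416), with CS-exposed values of 143 to 151 FPKM and untreated Ct values of 135 to 141 FPKM. Caprin2, an RNA-binding protein, had one of 0.17 (unadjusted p = 0.039), and Rarb, a retinoic acid receptor at 1.10 FPKM in untreated Ct mice, one of 0.48 (unadjusted p = 0.0271). The median of the list was 0.038, and the lowest was Foxe3 with -0.42 (unadjusted p = 0.136). Maf, whose protein binds the core marked in the promoters above, was at 65.0 FPKM and 67.2 FPKM (log2 fold change 0.050, unadjusted p = 0.298), Pax6 at 22.3 FPKM and 21.2 FPKM, and Prox1 at 44.2 FPKM and 43.7 FPKM, in untreated Ct and CS-exposed mice. The 11 tested genes of the list of enzymes that act on crystallin proteins were calpain proteases with their inhibitor Cast, methionine sulfoxide reductases and the repair enzyme Pcmt1. Of these 1 had an unadjusted p value under 0.05, again beside 4.83% of all genes, the methionine sulfoxide reductase Msra (log2 fold change -0.41, unadjusted p = 0.0413, adjusted p = 0.956). Their median was 0.019 and the highest was Msrb1 with 0.16.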

How the data were processed

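RNA-seq of lens FC was compared between 4 CS-exposed and 4 untreated Ct libraries. Per the labels, the processing notes of the authors name STAR 2.5, HTSeq 0.6.1, DESeq2 and GRCm38, and the deposited values are FPKM per library. The annotation release is not given in the sources used here. The group means, log2 fold change, p-value and adjusted p-value deposited by the authors were not used.

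Genes reaching 1 FPKM as a group mean were compared on log2(FPKM + 0.1) with limma 3.58.1 (R 4.3.3; lmFit, eBayes with a trend), two-sided and adjusted by Benjamini-Hochberg over the 9794 genes. On this scale, changes of low genes are understated. The fit was tested on simulated data. Single genes were also compared by an exact permutation test over 70 assignments, and p-values measure the spread between pools. Numbers in the titles were not used as pairs: deviations of same-numbered libraries correlated at 0.012 to 0.16, over 0.1 in 2 of 4. Library totals came from genes under 0.3 FPKM with annotated lengths, and lengths up to 30000 bases were tried for whole reads.

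Members, lists and the rule for named genes (members, list genes at the extremes or with p under 0.05, the 5 genes most like the members) were chosen with earlier results of these data known. Maf, Pax6, Prox1, Cryge, Crygs and Cryaa were named after their values were seen. Alternatives were other pseudocounts, filters, scalings and variance models, the replicate block and leaving out each library. Chosen after seeing the data were Xist level as a term and its interaction, limma-voom on recovered reads, and principal coding lengths. Protein sequences were not used here.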

Additional observations from a re-analysis of the deposited data

Results flagged for a closer look

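Crybb1 was at 15036 FPKM in untreated Ct replicate 1, far from the other 3 untreated Ct libraries, which were at 14576 to 14599 FPKM. This was 1 of 12 groups of 4 values examined for a library far from the others, and chance flags about 1 in 20. For Cryba1 the log2 fold change by smoke in high-Xist minus that in low-Xist libraries was -0.11, with opposite directions in the 2 sets (limma adjusted p = 0.878). The same held for Cryba4, also with -0.11 (limma adjusted p = 0.887).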

How the results depend on the processing

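Over 20 alternatives for each of the 6 beta crystallins, 108 of 120 log2 fold changes kept their direction and stayed at p values over 0.05, 9 changed direction, 3 were at 0, and 0 had an unadjusted limma p value under 0.05, the lowest being 0.0995 (adjusted p = 0.934 at the lowest). The largest absolute value was 0.053. With quantile normalization Cryba2 was at 0.0092, while Crybb1, Crybb2 and Crybb3 were at 0 because each held the same rank in every library. Scaled to genes that are not crystallins, Crybb3 was at -0.0076. When 1 library at a time was left out, Cryba1 ranged from -0.037 to -0.0038, Cryba2 from -0.030 to 0.0084, Cryba4 from -0.041 to 0.0019, Crybb1 from -0.035 to 0.0017, Crybb2 from -0.047 to -0.012 and Crybb3 from -0.018 to 0.045. Directions turned without untreated Ct replicate 4 (Cryba2, 0.0010) or 3 (Cryba4, 0.0019, and Crybb3, -0.018) and without CS-exposed replicate 1 (Crybb3, -0.012), 2 (Cryba2, 0.0084, and Crybb3, -0.0032) or 4 (Crybb1, 0.0017). The cause was not tested.

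Over all genes, 1 gene had an adjusted p value under 0.05 as reported. This was 0 genes without a filter, with eBayes without a trend and without untreated Ct replicate 4 (862, 498 and 479 genes with an unadjusted one), 2 with limma-voom on recovered reads, and 0 to 1 across the fits that left out 1 library. Unadjusted, 473 genes as reported became 862 without a filter (more genes tested), 226 with a minimum of 5 FPKM (fewer genes tested) and 418 to 525 without 1 library. Of the 473 genes 43.1% were lower in CS-exposed mice, and 58.9% of 487 when scaled to genes that are not crystallins. With the replicate block, 522 genes had an unadjusted and 5 an adjusted p value under 0.05, and the block brought none of the 6 genes under 0.05.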
